A study of Mus musculus with 18 samples.

Results

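Cohesin that sat close to a gene start without its loader was examined in mouse pro-B cells, through 7886 RAD21 ChIP-seq regions out of 41593 called in both dCas9 control libraries. A region was kept when it lay within 5000 bp of an annotated gene start (37252 gene records, mm9) and overlapped none of the 32156 NIPBL regions called in both NIPBL dCas9 control libraries. The remaining RAD21 regions were 27812 distal ones without NIPBL, 3310 near a start with NIPBL, and distal ones with NIPBL. With starts of protein-coding genes only, 5445 regions were kept. The count depended on requiring both RAD21 control lists: with the second list alone it was 15274, and with the first alone 11327. At the limit of distance, the last regions kept lay 5000 bp from the starts of Gm17019 and Kctd7, and the first left out lay 5001 bp from Gm13124 and 5003 bp from snoU13.

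The series held 18 libraries, of which 14 immunoprecipitated ones had peak lists. All came from a pro-B line transformed by v-Abl, a viral kinase, that was RAG2 deficient, JH-del and dCas9 expressing and carried Emu-Bcl2, a transgene for the survival factor Bcl2; dCas9 binds DNA without cutting it. All cells received 3 uM STI-571, an inhibitor of the Abl kinase, over 4 days. RAD21 was mapped in block cells that also expressed the Sg1-sgRNA (n = 2) and in dCas9 control cells (n = 2), in Ig2b-del/del cells (n = 3) and in their wild type counterparts (n = 3). NIPBL was mapped in block (n = 2) and control (n = 2) cells. The labels do not say whether replicates were separate cultures or whether a line was 1 clone, so each p below measures only the spread between these libraries. RAD21 lists held 44783 to 82776 peaks and NIPBL lists 63153 to 123573. The reads behind them were unknown, and presence of a called peak was compared. Of 10 pro-B marker genes such as Pax5 and Ebf1, 9 had a RAD21 region and 9 a NIPBL region near the start. RAD21 and NIPBL regions lay at 1 and 2 of 5 T cell markers, at 1 and 3 of 5 myeloid markers, and at 3 and 1 of 5 erythroid markers.

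RAD21 is a subunit of cohesin, the ring complex that holds and extrudes chromatin loops. NIPBL loads cohesin and drives its extrusion, and is commonly found at active promoters. Extruding cohesin halts at CTCF, a zinc finger protein whose motif has a direction, so cohesin can be found at CTCF sites far from where it was loaded.

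The CTCF core was searched on both strands as a consensus of 12 bases, the letters in capitals below, with any base allowed at positions 4, 5 and 9. Of 8 named regions considered, 6 with this core are shown, since it is the sequence on which the comparisons below turn. Those considered were top-ranked regions with this core or a looser form, free also at position 8, and gene-list regions with this core. The other 2 had their match close to an annotated exon, and that at Zkscan17 was of the looser form only. Brf1 encodes a subunit of an RNA polymerase III initiation factor, Foxo1 a transcription factor required in early B cells, Cebpe a myeloid transcription factor, Gad1 a GABA-synthesizing enzyme and Casq1 a calcium-binding protein of skeletal muscle, while D430018E03Rik is annotated as a lincRNA. Each stretch is mm9 sequence on the strand of the core, with the core in capitals and 20 bases on either side. The last 4 belong to gene lists and were added after values were seen.
Brf1, chr12:114243411-114243462, plus strand: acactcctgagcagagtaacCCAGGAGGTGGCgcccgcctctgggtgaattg
D430018E03Rik, chr5:143641167-143641218, plus strand: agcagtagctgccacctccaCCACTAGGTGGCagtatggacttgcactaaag
Foxo1, chr3:52066486-52066537, plus strand: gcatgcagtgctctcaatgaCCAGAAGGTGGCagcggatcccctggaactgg
Cebpe, chr14:55333084-55333135, plus strand: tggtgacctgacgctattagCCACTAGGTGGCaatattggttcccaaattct
Gad1, chr2:70396365-70396416, minus strand: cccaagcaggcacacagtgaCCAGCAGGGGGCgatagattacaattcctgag
Casq1, chr1:174147437-174147488, minus strand: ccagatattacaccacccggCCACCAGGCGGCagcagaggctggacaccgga
All 6 share the fixed letters of the core, and the bases beside it differ. Relative to the start, with negative values upstream, the centre of the core lay at −4605 bp for Brf1, −1141 bp for D430018E03Rik, −5747 bp for Foxo1 and −2099 bp for Cebpe. It lay at 2563 bp for Casq1. At Gad1 it lay at 5262 bp from the Gad1 start, while the start nearest to the region was that of the transcript 1500002O10Rik.

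The regions without NIPBL were near starts but mostly not at them. They were spread almost evenly over the 5 kb on either side, each 500-bp step holding 3.88% to 6.02% of the 7605 centres that lay within 5 kb. The centres of the other regions lay farther out, with an edge inside 5 kb. Only 477 (6.05%) covered the start itself, against 1702 (51.4%) of the regions with NIPBL. Within 500 bp of a start lay 1114 (14.1%), against 2288 (69.1%) with NIPBL. Their median distance to the start was 2189 bp, and 53.7% lay upstream of it. NIPBL was part of the rule, so these are descriptions. Since most of the regions did not cover a start, they are called start-proximal regions below, not promoters.

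**Figure D1:**
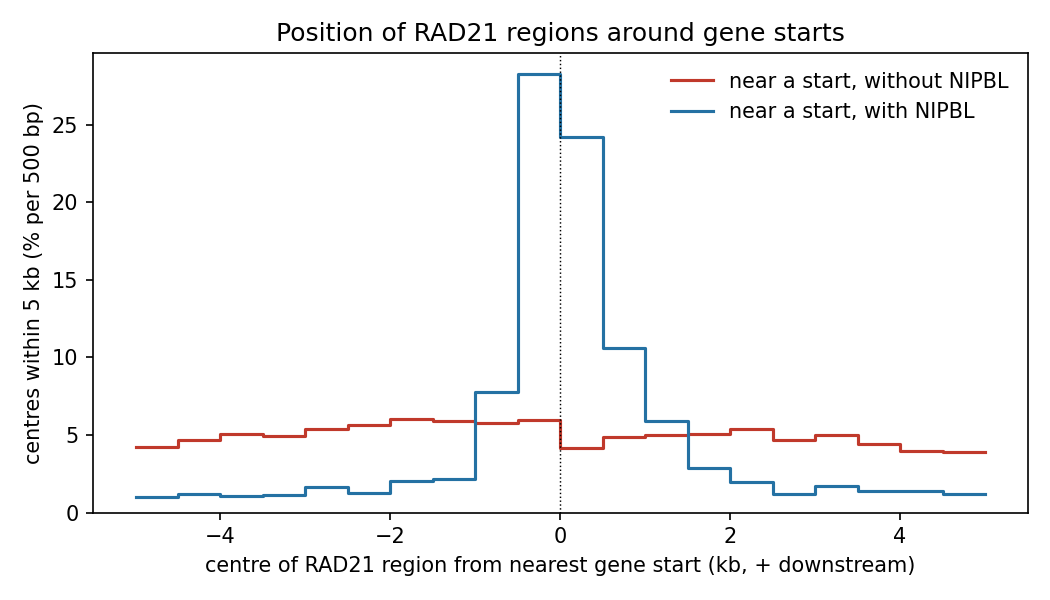
Position of RAD21 regions around the nearest gene start: the x axis gives the distance of the region's centre in kb, positive downstream, and the y axis the percentage, per 500-bp step, of the centres within 5 kb. Start-proximal regions without NIPBL (red, 7605 centres of 7886 regions) stay between 3.88% and 6.02% in every step, while regions with NIPBL (blue, 3235 centres of 3310 regions) gather at the start.

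In shape and sequence the start-proximal regions resembled distal regions without NIPBL more than regions with NIPBL. Their median width was 396 bp, against 390 bp for distal regions and 815 bp for regions near a start with NIPBL. By the annotation 19.7% touched an exon, 35.3% lay in an intron and 45.0% between genes. In distal regions those shares were 8.39%, 41.9% and 49.7%, and near starts with NIPBL 71.1%, 11.1% and 17.8%.

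A CTCF core lay in 1000 of the 7886 regions (12.7%, Wilson 95% interval 11.96 to 13.4), where 13.1% of all RAD21 regions had one, so the share was close to the background. The interval covers counting error only. Over whole regions the share was 13.6% for distal regions and 11.1% for regions with NIPBL, which were wider. A 300-bp window covers a smaller part of those wider regions. In windows of equal length, 300 bp at the centre, the core lay in 11.03% of start-proximal regions, 12.3% of distal regions, 5.98% of regions with NIPBL and 0.870% of all gene starts (250 bp before to 50 bp after). A looser core, free also at position 8 and so including every match of the stricter one, lay in 38.9%, 38.8%, 10.5% and 2.49% of the same windows.

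The motifs of Sp1, ETS, NRF1 and YY1 were less common in start-proximal windows than in windows with NIPBL. GGGCGG, bound by Sp1 factors, lay in 5.12% of the start-proximal windows and 4.61% of the distal ones, against 38.7% with NIPBL and 30.5% of gene starts. CCGGAAG, bound by ETS factors, lay in 1.33% and 1.35%, against 8.70% and 7.56%. The 10-base palindrome of NRF1 lay in 1 of the 7886 windows and in 22 of 3310 with NIPBL. TATAAA lay in 17.6%, 19.1%, 6.31% and 16.2% in the same order of classes. AAGATGGCG of YY1 lay in 0.368%, 0.798%, 1.33% and 1.39%. The palindrome of EBF1, free at its middle bases, lay in 1.04%, 1.07%, 1.30% and 0.996%. TGTGGTTT of RUNX factors lay in 3.16%, 3.30%, 1.48% and 1.71%, so that it and TATAAA were more common in start-proximal windows than in windows with NIPBL. All motifs were searched on both strands, and a match is a run of letters, not evidence of binding.

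Lack of NIPBL on the region did not mean lack of NIPBL at the gene. For 4045 regions (51.3%) the nearest start had a NIPBL region of both controls within 5 kb, and for 3841 it had none. That share was 52.6% over all RAD21 regions and 47.0% over distal regions without NIPBL, so it was close to the background. These subsets differed in kind. With NIPBL nearby, 59.95% of the starts were CpG-rich (observed over expected CpG of at least 0.6 and GC of at least 50% in 1000 bp), 80.2% were those of protein-coding genes, and 10.7% of the regions held a core. Without NIPBL nearby, 7.42% were CpG-rich, 48.0% protein-coding, and 14.8% held a core. The median gap from a region to the closest NIPBL region was 4603 bp over all 7886, 1962 bp in the first subset and 24256 bp in the second. A gap of at most 1000 bp separated 1125 (14.3%) of the start-proximal regions from NIPBL, as it did 770 (2.77%) of the distal ones.

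The question of whether these RAD21 regions recur was then put to the 8 RAD21 libraries that the choice had not used. A peak was present in all 8 for 4602 regions (58.4%), where the share over all RAD21 regions was 62.2%. The shares were 60.3% for distal regions and 72.6% for those with NIPBL. In no library was a peak found for 38 regions (0.482%, against 0.377% of all RAD21 regions). By library, 96.0% and 94.3% of the start-proximal regions had a peak in the block libraries, 79.3%, 85.6% and 71.1% in the Ig2b deleted libraries, and 75.6%, 77.0% and 68.5% in the wild type libraries. Both block libraries lay above all 6 others, which overlapped between deleted and wild type. The Ig2b lists name no control library in their peak names and the dCas9 lists do, so values within the Ig2b experiment are given beside the pooled ones.

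Start-proximal regions had a peak slightly less often than distal ones in all 8 libraries, 80.9% ± 10.2 against 81.9% ± 9.92 (SD, n = 8). The difference within a library was −0.975 ± 0.381 points (two-sided exact sign-flip permutation p = 0.00781, the smallest that 8 libraries can give; 0.0156 adjusted over 6 such tests). Within the 6 Ig2b libraries it was −1.12 points (exact permutation p = 0.0313, the smallest that 6 can give). Against regions with NIPBL, which averaged 91.4% ± 6.75, the difference was −10.5 ± 5.68 points and negative in 7 of 8 libraries (exact sign-flip permutation p = 0.0156, adjusted 0.0188). In block replicate 1 it was 0.424 points. This difference depended on what counted as a peak: with peaks required to cover at least 50% of the region it was 4.94 points (exact permutation, adjusted p = 0.344), and regions with NIPBL were wider. Ranked by fold within each list, the peaks of start-proximal regions had a median percentile of 70.2 ± 4.08, against 71.1 ± 3.87 for distal ones, a difference of −0.897 ± 0.263 and negative in 8 of 8 libraries (exact sign-flip permutation p = 0.00781, adjusted 0.0156).

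**Figure D2:**
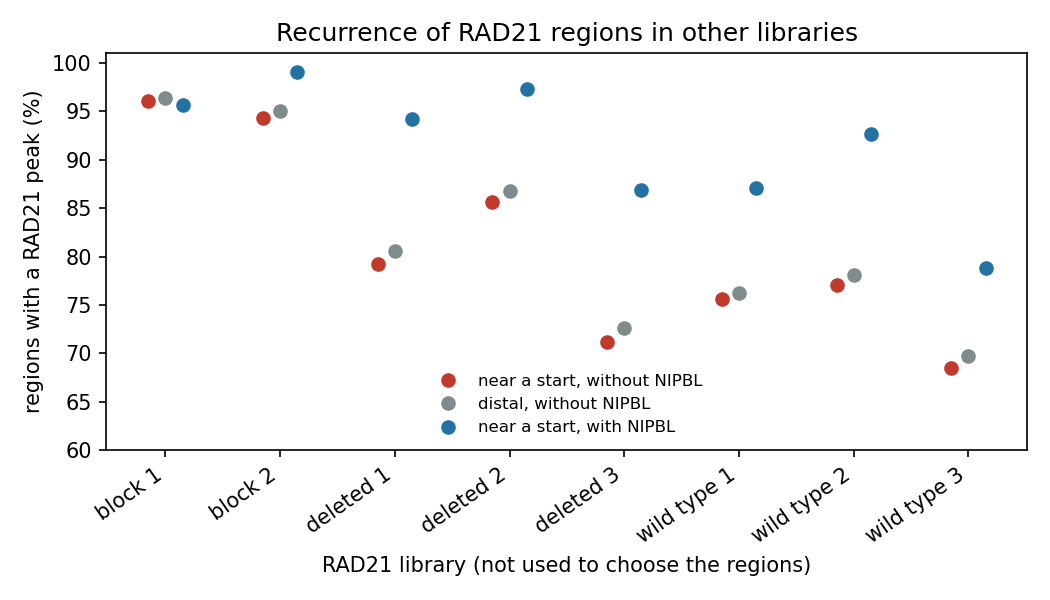
Percentage of RAD21 regions with a RAD21 peak (y axis, drawn from 60%) in each of the 8 libraries not used to choose them (x axis), for 7886 start-proximal regions without NIPBL (red), 27812 distal regions without NIPBL (grey) and 3310 near a start with NIPBL (blue). Red points lie just below grey ones in every library, and below blue ones in 7 of 8.

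Within the start-proximal regions, a CTCF core went with recurrence. Regions with a core (n = 1000) had a peak in 90.96% ± 5.89 of cases and those without (n = 6886) in 79.5% ± 10.8 (SD over 8 libraries), a difference of 11.5 ± 5.24 points in 8 of 8 libraries (exact sign-flip permutation p = 0.00781, adjusted 0.0156). With a looser core, free at 1 more position, it was 3.13 points. In the Ig2b deleted libraries 90.9%, 94.4% and 86.6% of the regions with a core had a peak, and in wild type 88.0%, 89.5% and 81.5%. Within these 6 the difference was 14.1 points (exact permutation p = 0.0313), and in the block libraries it was 3.61 and 3.79 points. Regions with a core had a median width of 456 bp and those without of 388 bp. In the control lists that chose the regions, median fold percentiles were 73.2 and 83.3 with a core, against 58.0 and 71.9 without. The part of width, or of fold in the controls, in the difference in recurrence was not tested.

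Distance and CpG content split the regions too. Regions within 500 bp of a start had a peak in 83.98% ± 8.41 of cases, those farther away in 80.4% ± 10.5, a difference of 3.54 ± 2.85 points in 7 of 8 libraries (exact sign-flip permutation p = 0.0234, adjusted 0.0234). It did not hold at a stricter peak threshold, −log10 q of at least 3 (0.711 points, exact permutation, adjusted p = 0.320), and turned to −1.21 points with peaks over at least 50% of the region. Regions at CpG-rich starts had a peak in 77.3% ± 12.3 of cases, those at CpG-poor starts in 82.9% ± 9.10, a difference of −5.60 ± 3.28 points, negative in 7 of 8 libraries (exact sign-flip permutation p = 0.0156, adjusted 0.0188). The exception was block replicate 2, with 0.0360 points. Within the Ig2b libraries these differences were 4.94 and −7.23 points (exact permutation p = 0.0313 each). Median widths were 448.5 bp within 500 bp of a start and 389.5 bp farther away. They were 375 bp at CpG-rich and 409 bp at CpG-poor starts. The splits also overlapped, since 5.09% of regions at CpG-rich starts lay within 500 bp, against 18.9% at CpG-poor ones. The part of width, or of either split in the other, was not tested.

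**Figure D3:**
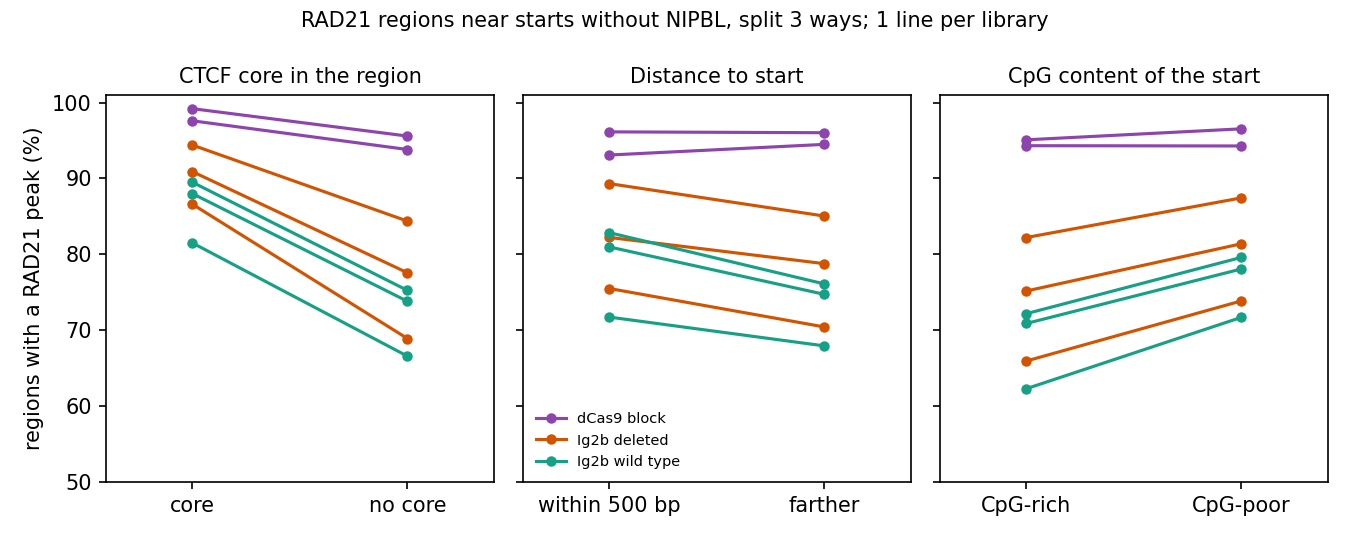
Percentage of start-proximal RAD21 regions without NIPBL that had a RAD21 peak (y axis, drawn from 50%), split by CTCF core, by distance to the start and by CpG content of the start, with 1 line per library. All 8 lines fall from core to no core, 7 fall from within 500 bp to farther away, and 7 rise from CpG-rich to CpG-poor starts.

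The 10 regions described next were picked for the highest mean fold percentile over the same 8 lists, so their high values in each list follow from the choice. Folds are the authors' own enrichment values and are not on one scale between lists. In an intron of 4930468A15Rik on chromosome X (73843889 to 73844485), the region ranked first had folds of 16.8 and 19.6 in block libraries, and 17.1 and 18.8 in controls. In the Ig2b experiment it had 19.2, 20.4 and 21.0 in deleted cells and 19.7, 20.4 and 21.8 in wild type cells. Its mean fold percentile over the 8 lists was 99.9, and the groups overlapped. NIPBL peaks lay on it in both block libraries (folds 6.50 and 3.50) and in 1 control (4.15).

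Upstream of D430018E03Rik, whose core is shown above, the RAD21 folds were 13.4 and 16.9 in block libraries, against 14.1 and 16.3 in controls. They were 17.5, 15.4 and 18.3 in deleted libraries, against 15.9, 17.9 and 13.9 in wild type, and the groups overlapped. The other regions of the first 10 lay at the pseudogenes Gm6142, Gm13996 and Rps19-ps10, at the zinc finger gene Zkscan17, at the small nucleolar RNA gene SNORA73, at the ubiquitin-conjugating enzyme gene Ube2g2, at Brf1 and at 4921525B02Rik. Of these 10, 2 covered a start, those at Gm13996 and Rps19-ps10, and 2 held a core.

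At the other end, the region at Gm14707, a processed transcript on the X chromosome, had folds of 10.1 and 3.79 in the controls and no peak in the 8 other RAD21 libraries. The regions at Gm14205 (4.70 and 3.90) and at Rgs14 (3.85 and 3.79), a regulator of G-protein signalling, likewise had peaks in the controls only. The 3 were 134, 191 and 182 bp wide. Regions with a peak in at most 4 of 8 libraries (n = 1708) had a median width of 237 bp, against 502.5 bp for those in all 8.

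In block cells the same regions kept RAD21. A peak was present in both block libraries for 7211 regions (91.4%, background 92.6%) and in neither for 87 (1.10%, background 0.854%). The controls chose the regions, which could only keep or lose a peak, so nothing is tested here.

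NIPBL in block cells was a measure the choice had not used. A NIPBL peak lay on 14.5% and 18.6% of start-proximal regions in the block libraries, on 11.2% and 14.5% of distal regions without NIPBL, and on 97.2% and 97.0% of regions near a start with NIPBL. Both block libraries had one at 731 start-proximal regions (9.27%, background 7.58% of RAD21 regions without NIPBL) and neither had one at 6009 (76.2%, background 80.2%). With 2 libraries no test was made. The controls themselves had a peak in 1 list at 1134 regions, in both lists but in separate places at 87, and in neither at 6665. Of those with none, 7.73% and 11.8% had a block peak, against 5.87% and 8.99% of the distal regions with none. Of those with a peak in 1 control, 49.2% and 53.9% had one. Among all start-proximal regions, 26.8% and 30.6% of those within 500 bp of a start had a block peak, and 12.4% and 16.6% of those beyond. The NIPBL control lists had the same order, with 17.4% and 9.52% within 500 bp, and 9.89% and 4.99% beyond. Block peaks on start-proximal regions stood at a median fold percentile of 48.2 and 56.6 in their lists, while those on regions with NIPBL stood at 90.6 and 95.2.

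**Figure D4:**
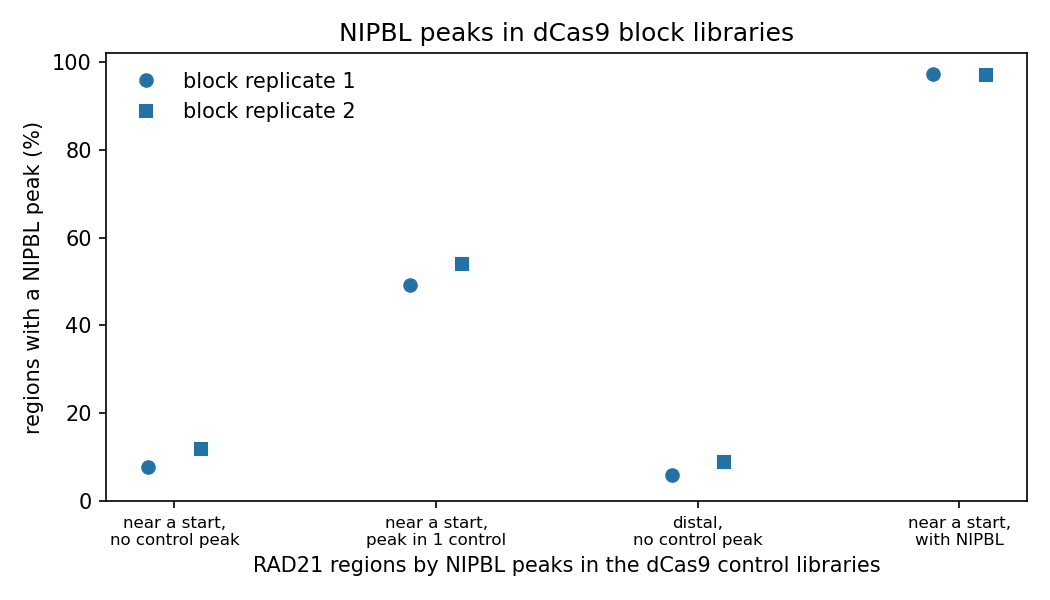
Percentage of RAD21 regions with a NIPBL peak (y axis) in block replicates 1 and 2, with regions grouped on the x axis by their peaks in the NIPBL control lists. Start-proximal regions without a control peak lie at 7.73% and 11.8%, those with a peak in 1 control at 49.2% and 53.9%, distal regions without a control peak at 5.87% and 8.99%, and regions with NIPBL at 97.2% and 97.0%.

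Of the 4 regions with a NIPBL peak in both block libraries and the highest mean NIPBL fold percentile, 3 lay beside NIPBL regions. At Slc25a40, a mitochondrial carrier gene, NIPBL folds were 9.43 and 9.21 in block libraries with no peak in either control, and the closest control NIPBL region was 37 bp away. These peaks covered only 8 and 18 bp of the 724-bp region. At 2700050L05Rik they were 9.96 and 7.64 in block libraries with none in controls, and the gap was 61 bp. They covered 329 and 150 bp of 689. At Shq1, a gene for a factor in box H/ACA RNP assembly, they were 8.03 and 5.86 in block libraries with none in controls, and the gap was 286 bp. They covered 57 and 22 bp of 330. Only Tph2, the gene for the tryptophan hydroxylase of serotonin neurons, stood alone among the 4. Its region covered the start, had NIPBL folds of 8.45 and 5.57 in block libraries and 4.88 in 1 control, and lay 48150 bp from a NIPBL region of both controls.

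Between Ig2b deleted and wild type cells the share of start-proximal regions with a RAD21 peak was 78.7% ± 7.27 and 73.7% ± 4.60 (SD, n = 3 each), a difference of 4.98 points that was within the spread (two-sided exact permutation p = 0.4, smallest possible 0.1). It was 1.49 points without deleted replicate 2, 2.35 without wild type replicate 3 and 8.75 without deleted replicate 3. With lists of one length it was 1.25 points, with −log10 q of at least 3 it was 9.28, and with peaks over at least 50% of the region it was 12.5. With all libraries it was 5.28 points in distal regions and 6.60 points with NIPBL. A peak in all 3 deleted and no wild type library was found for 65 regions (0.824%, background 0.793%), and the reverse for 14 (0.178%, background 0.137%).

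Fitted over 34471 RAD21 regions on log2 of covered bp plus 100, limma called 27 of the 6314 start-proximal regions tested (0.428%, background 0.435%; adjusted p under 0.05, Benjamini-Hochberg). Of these, 20 were higher in deleted cells (background 0.348%) and 7 lower (background 0.0870%). The share called was close to the background. Unadjusted p was under 0.05 for 463 regions (background 8.23%), 403 higher (background 7.46%) and 60 lower (background 0.772%). The median log2 difference was 0.15 in these regions and 0.16 over all regions. With quantile normalization the median over all was −0.02, the split of unadjusted calls became 201 higher and 286 lower, and 0 higher and 2 lower regions were called. No region was called with the replicate number as a block or without any 1 of 5 of the 6 libraries, and 94 were called without deleted replicate 3.

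Every called region had peaks in all libraries of one group and in none of the other, with widths of 179 to 519 bp. Higher in deleted cells was the region 2696 bp upstream of Eya2, a gene for a transcriptional coactivator and phosphatase, with 219, 212 and 157 bp covered in deleted libraries and 0 in each wild type library (log2 1.56, SE 0.14, limma adjusted p = 0.0263). So was the one upstream of Rgl2, a Ral exchange factor gene, with 171, 195 and 145 bp in deleted libraries and 0 in wild type (log2 1.43, SE 0.13, limma adjusted p = 0.0263). The regions at Nol10, a nucleolar protein gene, at the miRNA record AL772258.1 and at Atp6v0d1, a proton pump subunit gene, had 126 to 218 bp in deleted libraries and 0 in wild type. Lower in deleted cells was the region 1518 bp upstream of Glis2, a zinc finger gene, with 0 bp in each deleted library and 185, 179 and 158 bp in wild type (log2 −1.45, SE 0.12, limma adjusted p = 0.0263). The region over the start of Pcdhb15, a protocadherin gene, had 0 bp in deleted libraries and 232, 154 and 219 bp in wild type (log2 −1.58, SE 0.15, limma adjusted p = 0.0263). Gm12868, Ng23 and Nr1i2, the last a nuclear receptor gene, had 0 bp in deleted and 122 to 210 bp in wild type libraries. These log2 values depend on the 100 bp added, since 1 group was at 0. Each called region reached the required 50 bp on average only through the group that had peaks. A group at 0 in all its libraries adds no spread, so the SE and adjusted p describe these regions and are no independent evidence. Of the 27 regions, 16 had NIPBL within 5 kb of the start and 2 held a core. Over all 7886 start-proximal regions the shares were 51.3% and 12.7%.

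The regions belonged to 6548 nearest genes, 5446 with 1 region, 932 with 2, and at most 8. Of 22350 protein-coding genes, 5141 (23.0%) had a start-proximal RAD21 region without NIPBL, 14.0% one with NIPBL and 50.9% a NIPBL region. They were found at 3409 of 11379 genes with NIPBL near the start (30.0%) and at 1732 of 10971 without (15.8%). Gene lists are described without a test.

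Genes of the early B lineage had such a region at 9 of 21 starts and a NIPBL region at 19. The 9 were Blnk, Cd79a, Dntt, Foxo1, Ikzf1, Ikzf3, Il7r, Rag1 and Vpreb1. At Rag1, which encodes the catalytic subunit of the V(D)J recombinase, 3 regions lay 889, 3162 and 3266 bp from the start. The region at 3162 bp had folds of 9.07 and 16.1 in block libraries, against 10.1 and 17.0 in controls. It had 12.7, 13.4 and 13.0 in deleted libraries, against 11.4, 10.8 and 10.9 in wild type, and no NIPBL peak in any list. In block and control the second library of each group was the higher. Median folds over all start-proximal regions with a peak were 5.51, 5.39 and 5.94 in deleted libraries, against 5.15, 5.16 and 4.97 in wild type. Higher values in deleted lists were thus not particular to Rag1. Upstream of Foxo1 a wide region of 3280 bp had folds of 11.3 and 12.4 in block libraries, against 12.3 and 10.8 in controls, and NIPBL peaks with folds of 3.80 and 3.63 in block libraries and 3.08 in 1 control. Its folds were 13.7, 9.51 and 13.7 in deleted libraries, against 11.8, 10.6 and 13.7 in wild type, so the groups overlapped. The region at Il7r, the gene for the IL-7 receptor alpha chain, covered its start and recurred in all 8 libraries.

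Broadly active genes carried them as well. Housekeeping genes had a region at 7 of 15 starts and NIPBL at 14, and proteasome subunit genes at 8 of 20 and 19. At Gapdh, the glycolytic enzyme gene, the region lay 4031 bp from the start, with folds of 8.66 and 17.2 in block libraries and 8.65 and 15.5 in controls. At Psmc1, which encodes an ATPase of the proteasome's cap, it lay 3404 bp upstream, with 9.20 and 15.3 in block libraries and 9.36 and 15.8 in controls. In both the second library of each group was the higher.

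Genes of other tissues carried them too. Muscle genes had a region at 6 of 20 starts and NIPBL at 4, erythroid genes at 4 of 12 and 2, liver genes at 3 of 17 and 1, myeloid genes at 3 of 14 and 4, neuronal genes at 3 of 23 and 12, and T cell genes at 2 of 15 and 7. None of 15 epidermis genes had one. Upstream of Ryr1, the calcium release channel gene of skeletal muscle, the folds were 11.6 and 20.3 in block libraries and 13.3 and 18.6 in controls. They were 12.5, 14.0 and 12.2 in deleted libraries and 11.1, 11.4 and 9.46 in wild type, and the closest NIPBL region was 7804 bp away. As with the median fold over all start-proximal regions, each deleted value was above each wild type one.

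**Figure D5:**
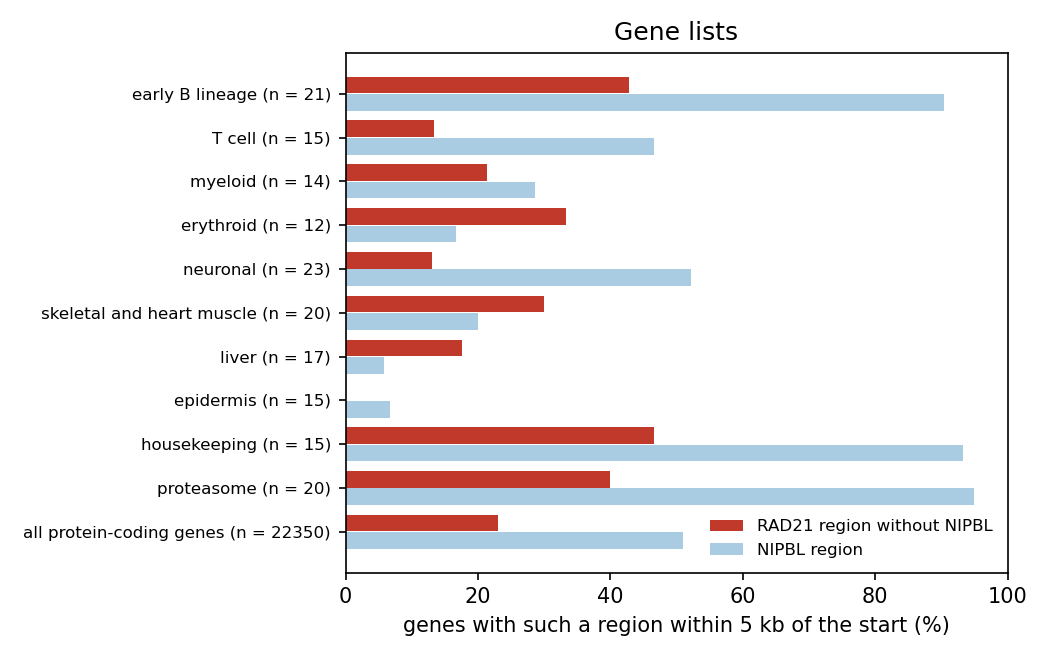
Percentage of genes (x axis) with a RAD21 region without NIPBL (red) or with a NIPBL region (light blue) within 5 kb of the start, for 10 gene lists and, last, all 22350 protein-coding genes. Red bars reach 46.7% in housekeeping genes and 42.9% in early B genes and are absent in epidermis genes, against 23.0% of all protein-coding genes.

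Gene families differed widely. Of 100 families with at least 20 genes, 5 had no such region: Ces, Defb, Klk, Mup and Serpina. Olfactory receptor genes (Olfr) had one at 37 of 1113 starts (3.32%) and vomeronasal receptor genes (Vmn) at 7 of 328 (2.13%). The protocadherin beta genes (Pcdhb), neuronal adhesion genes in one cluster, had one at 12 of 21 starts (57.1%), and 5 of 21 had a NIPBL region. No CTCF core of the stricter form lay in the regions at Pcdhb genes, and 6 of those 17 pairs of gene and region recurred in all 8 libraries. The clustered copies resemble each other, so the placing of reads among them is uncertain.

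Antigen receptor V genes, the variable segments joined in V(D)J recombination, had one of these regions within 5 kb at a larger share of their records than any other type of gene record in the annotation with at least 50 genes. Of 355 records typed IG_V_gene, 260 (73.2%) had one. They were 97 of 112 on chromosome 12, where Igh lies, 71 of 124 on chromosome 6, where Igk lies, and 87 of 108 on chromosome 14, where the T cell receptor alpha and delta genes lie. NIPBL regions were near 11, 7 and 12 of these starts. Cores pointed along the gene in 56 of the 60 V gene regions with a single core (93.3%, Wilson interval 84.1 to 97.4), against 469 of 926 elsewhere (50.6%, 47.4 to 53.9). The intervals count regions as independent, which close copies such as V genes are not.

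One library stood apart at the V genes of chromosome 12. Of 169 regions there, 92.3% and 55.0% had a RAD21 peak in block replicates 1 and 2. In deleted libraries 89.9%, 95.3% and 81.7% had one, and in wild type libraries 85.8%, 82.8% and 79.9%. Block replicate 2 was thus below the other 7. It had 95.1% on chromosome 6 (n = 81) and 95.2% on chromosome 14 (n = 83), within or above the range of the Ig2b libraries there. Over the 7548 start-proximal regions away from V genes it had 95.2%, and block replicate 1 had 96.2%. V genes are close copies of each other, so the placing of reads among them is uncertain.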

How the data were processed

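ChIP-seq peak lists of 14 libraries were analysed, and the 4 inputs were not used here. The submitters' processing notes name the mm9 build, Bowtie2 2.2.8, SAMtools 1.8 and, without a version, MACS2. Peaks were called per library by the authors. The fold of each peak is the authors' deposited ratio over background, used only to describe and rank peaks within a list, and the deposited −log10 q served as a stricter threshold. Per the peak names, the dCas9 lists were called with a control and the Ig2b lists had duplicates removed.

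Overlapping peaks (1 bp or more, 19 autosomes and X) of the RAD21 control lists were merged, and gene starts, exons and sequence came from GENCODE vM1 and NCBIM37. Regions, gene lists and tests were chosen with earlier results of these data known. Shares of regions with a peak were compared within each library by exact two-sided sign-flip permutation, adjusted over 6 tests, and between Ig2b groups by exact permutation. Covered bp per region, with 100 bp added and at least 50 bp on average, was tested with limma 3.58.1 in R 4.3.3, which was tested on simulated data. That simulation used broadly covered regions and did not set a whole group to no coverage, the case of every called region. Permutations were run with scipy 1.17.1 and tables made with pandas 2.3.3 in Python 3.11.15. Named regions were the 10 with the highest mean fold percentile in the 8 libraries not used to choose, up to 3 per gene list, up to 5 limma calls per direction, the 4 strongest with NIPBL in both block libraries, 3 absent from all 8 libraries, and those at the distance limit. Gene list members named by symbol alone, the families and the V genes were chosen after their values were seen. Read depth was unknown, so no interval that needs it was given.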

Additional observations from a re-analysis of the deposited data

How the results depend on the processing

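Of the 6 within-library comparisons, 4 kept their direction and an adjusted p under 0.05 in every alternative run, with ranges of −2.34 to −0.737 points (start-proximal minus distal), −2.78 to −0.696 percentile points (fold), 3.13 to 14.1 points (core minus no core, lowest with the looser core) and −7.26 to −3.61 points (CpG-rich minus poor). With peaks over at least 50% of the region, the difference from regions with NIPBL was 4.94 points and that within 500 bp was −1.21 points. With −log10 q of at least 3 the comparison within 500 bp gave 0.711 points, and the cause was not tested. The number of regions was 1985 within 1 kb, 3644 within 2 kb and 7047 to 15274 when 1 control list was left out. Regions called by limma between deleted and wild type numbered 0 with 500 bp added, 48 with 25 bp added, 2 with quantile normalization, 137 with −log10 q of at least 3, 44 with lists of one length, and 0 to 94 without 1 library. The replicate number as a block gave 0. Over regions, same-numbered deleted and wild type libraries had r = 0.015, 0.105 and 0.128. Differently numbered ones had r of −0.124 to 0.024. Whether the numbers mark pairs is unknown, so fits without and with the block are both given. The share with a NIPBL peak in block cells was 16.5% ± 2.92 (SD, n = 2), 9.26% with −log10 q of at least 3 and 9.74% among regions with no control peak. Protein-coding starts for the shares, and the alternatives for RAD21 in block libraries (94.3% to 96.0% of regions), were added after the data were seen. The unknown depth of each list limits every share.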
